A study of Mus musculus with 56 samples.

Results

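Topotecan, a camptothecin derivative that inhibits topoisomerase I, was applied to cultured mouse cortical neurons at 6 doses from 3 to 1000 nM, and RNA was measured on gene-level Affymetrix MoGene 1.1 ST arrays. The dose series comprised all 10 arrays of that type among the 56 arrays of the study, chosen by their titles. They held 1 array each at 3, 30, 150, 500 and 1000 nM, 2 arrays at 300 nM (300 nM 1 and 2) and 3 vehicle arrays (vehicle 1, 2 and 3), which were taken as dose 0. The other arrays of the study held other drugs, topotecan in other experiments and short hairpin RNAs, and 18 of them are used below for comparison.

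All 10 arrays carried total RNA of neurons of the C57BL6 strain, taken from embryos of embryonic day 13 to 15 and grown for 7 days in vitro before drug or vehicle was added; the labels name no allele or transgene and do not give the vehicle's composition. The exposure is given for the whole study as 24 or 72 h, without saying which applies here. The array titled and treated as 500 nM topotecan carries a description naming ICRF-193, a topoisomerase II inhibitor. It is grouped here by title and treatment, and the main counts are also given without it. Nothing states that the vehicle arrays or the 2 arrays at 300 nM came from separate cultures, so a p-value here reflects how far these arrays scatter, which may be technical, and the small number of arrays limits the precision.

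Topoisomerase I nicks and reseals DNA ahead of and behind RNA polymerase and so relieves the twist that transcription builds up. Topotecan holds the enzyme on the nicked DNA, and long transcription units, which a polymerase takes longest to cross, are known to be the most sensitive to the drug in neurons. Many of the longest mouse genes encode synaptic adhesion molecules, receptors and ion channels. The dose series addresses at which dose such genes leave their vehicle level and how the response grows from there. Expression is given as log2 of the deposited intensity, so that a difference of 1 is a doubling. Of 18820 genes with a probe set of their own, 11292 with a mean log2 intensity of at least 6.02 were tested.

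Before any effect of dose, the arrays fell into 2 sets that did not follow dose. Over the genes of at most 100 kb, 1 principal component held 75.5% of the variance and set vehicle 1, vehicle 2 and 1000 nM (the set of 3 arrays) apart from vehicle 3 and the arrays at 3 to 500 nM (the set of 7 arrays). Correlations of log2 intensity over all genes tested were 0.986 to 0.996 within the set of 7 and 0.918 to 0.939 between the sets. Mean intensities overlapped, at 388.5 to 401.2 over the 10 arrays. The sets are a split by expression values and not a known batch.

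Markers of dividing cells, astrocytes and the oligodendrocyte lineage were higher in the set of 3. Top2a, the topoisomerase of dividing cells, was at 9.09 and 9.33 in vehicle 1 and 2 and 7.79 at 1000 nM, against 5.27 to 5.70 in the other 7 arrays. The proliferation gene Mki67 was at 9.54, 9.67 and 8.03 in the set of 3 and 5.58 to 6.03 in the set of 7. The mean of 20 proliferating and progenitor genes was 9.07 and 9.12 in vehicle 1 and 2, 8.17 at 1000 nM and 6.72 to 6.89 in the set of 7. For 19 astrocyte markers the means were 10.85, 10.89, 9.90 and 8.68 to 9.24 in the same order, and for 6 oligodendrocyte lineage markers 8.50, 8.46, 7.83 and 6.41 to 6.91. The mean of 9 microglia markers was 7.56 and 7.63 in vehicle 1 and 2, but 6.85 at 1000 nM, inside the 6.69 to 6.86 of the set of 7. For 17 fibroblast, meningeal and mural markers it was 9.96, 9.97 and 10.10 in the set of 3 and 9.02 to 9.37 in the set of 7. Neuronal markers were lower in the set of 3: the mean of 12 pan-neuronal markers was 11.21, 11.25 and 11.02 there against 11.38 to 11.47, and that of 18 interneuron markers 8.92, 8.95 and 8.53 against 9.13 to 9.45. Map2, a dendritic microtubule protein, was at 11.72 to 12.13 in the 10 arrays. Top2a was below the dim limit of 6.02 in all arrays of the set of 7, where Gfap, the astrocyte filament gene, was at 6.45 to 8.22. The part of these cells in each result was not tested. In bulk RNA, fewer cells of a type and less RNA per cell cannot be told apart.

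**Figure D1:**
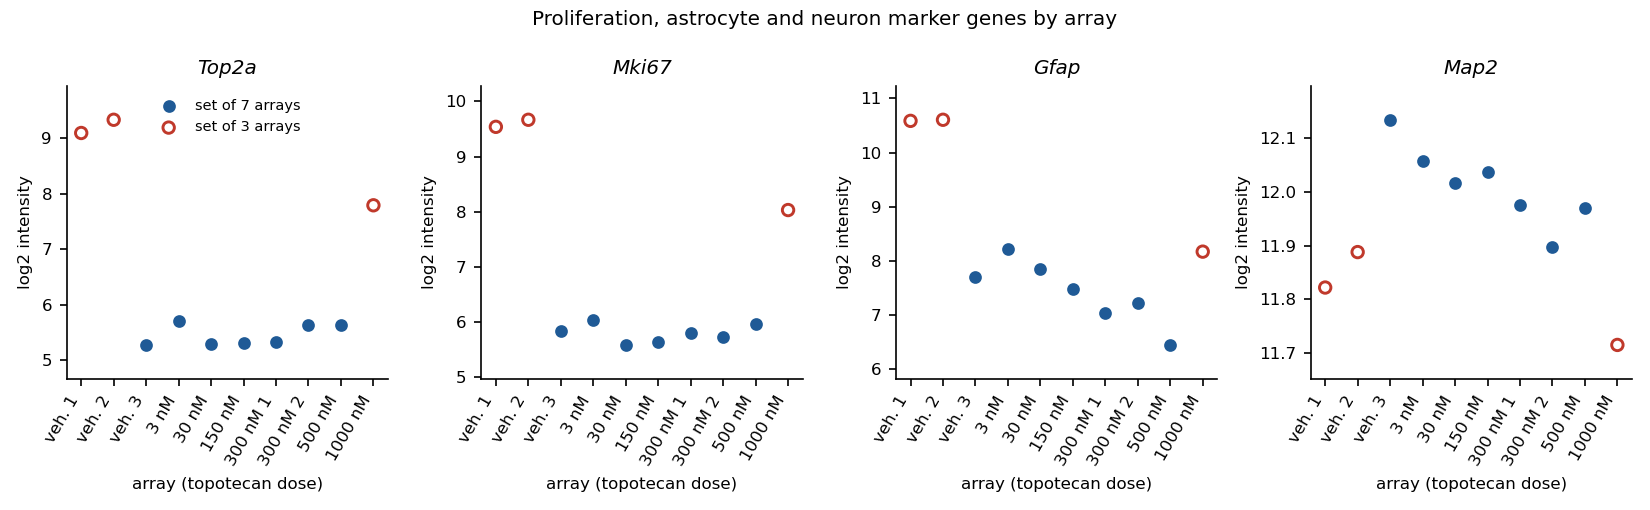
Log2 intensity (vertical axes) of Top2a, Mki67, Gfap and Map2 in each of the 10 arrays, ordered by topotecan dose (horizontal axes); filled points are the set of 7 arrays and open points the set of 3. Top2a and Mki67 lie between 7.79 and 9.67 in the set of 3 and between 5.27 and 6.03 in the set of 7, while Map2 stays between 11.72 and 12.13 in all arrays.

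Because the 1000 nM array shares its set with vehicle 1 and 2, and the other treated arrays share theirs with vehicle 3, results are given in 3 ways. The dose trend is the slope of log2 intensity over the rank of the dose in all 10 arrays (vehicle, then each dose as 1 step), fitted with limma. The within-set trend adds the array set as a term to that fit, and the trend in the set of 7 leaves out vehicle 1, vehicle 2 and 1000 nM. The sets were found in the same values, and the p-values of the within-set trend take no account of that. All p-values are 2-sided and adjusted over all genes by the Benjamini-Hochberg method, with a threshold of 0.05.

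Expression changed with dose in 390 genes (3.45% of those tested), of which 220 fell (1.95%) and 170 rose (1.51%). The genes that fell were mostly long: their median length was 384 kb against 26.2 kb over all genes tested, 171 of them (77.7%) were over 100 kb and 76 over 500 kb. The genes that rose had a median length of 24.3 kb, and 19 of them (11.2%) were over 100 kb, against 16.4% of all genes tested. Without the 500 nM array the counts were 90 and 45, and without the 1000 nM array 294 and 521. The within-set trend fell in 1458 genes (12.9%) and rose in 1413 (12.5%), and these included all 220 and all 170. In the set of 7 alone 603 fell (5.34%) and 524 rose (4.64%), which included 155 and 115 of them.

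Groups of neighbouring doses gave far fewer calls after adjustment than the trend over all arrays. Before adjustment, 2404 genes had a p under 0.05 at 300 to 1000 nM against vehicle and 2160 in the dose trend (limma). Of the 4 arrays at 300 to 1000 nM against the 3 vehicle arrays, limma called 2 genes (0.0177%), both lower: Nppc, the precursor of C-type natriuretic peptide, by 1.20 ± 0.12 (SE) and Hspa2, a member of the Hsp70 chaperone family, by 0.74 ± 0.077, each with an adjusted p of 0.0299. With the array sets as a term the same contrast called 726 lower genes (6.43%) and 576 higher (5.1%), and in the set of 7 it called 0. The arrays at 3 to 150 nM against vehicle, those at 300 to 1000 nM against those at 3 to 150 nM, and the 2 arrays at 300 nM against vehicle each gave 0 calls (0%) with limma, with 1648, 991 and 1244 genes at an unadjusted p under 0.05. Leaving out vehicle 3, the only vehicle array in the set of 7, turned the counts for 300 to 1000 nM, 3 to 150 nM and 300 nM against vehicle into 2596, 2651 and 5559. Those contrasts then compare mostly arrays of the set of 7 with vehicle arrays of the set of 3.

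Genes over 500 kb lay lowest at every dose from 150 nM, followed by those of 200 to 500 kb. Relative to the vehicle of their own set, the 189 genes over 500 kb had a median difference of -0.049 at 3 nM, -0.067 at 30 nM and -0.35 at 150 nM. It was -0.46 and -0.45 in the 2 arrays at 300 nM, -0.64 at 500 nM and -0.98 at 1000 nM, so that each dose above 30 nM lay below the one before. The 604 genes of 200 to 500 kb had medians of -0.012, -0.016, -0.10, -0.14, -0.12, -0.19 and -0.39 over the same arrays. Genes of 100 to 200 kb had medians between -0.065 and -0.0051, and those of 10 to 50 kb between 0.014 and 0.074. Against the mean of all 3 vehicle arrays the medians over 500 kb were 0.11, 0.084, -0.19, -0.32, -0.33, -0.49 and -1.03, with vehicle 3 itself at 0.16 and vehicle 1 and 2 at -0.090 and -0.055. On that scale 3 and 30 nM lay inside the vehicle range and 150 nM and above lay below it.

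**Figure D2:**
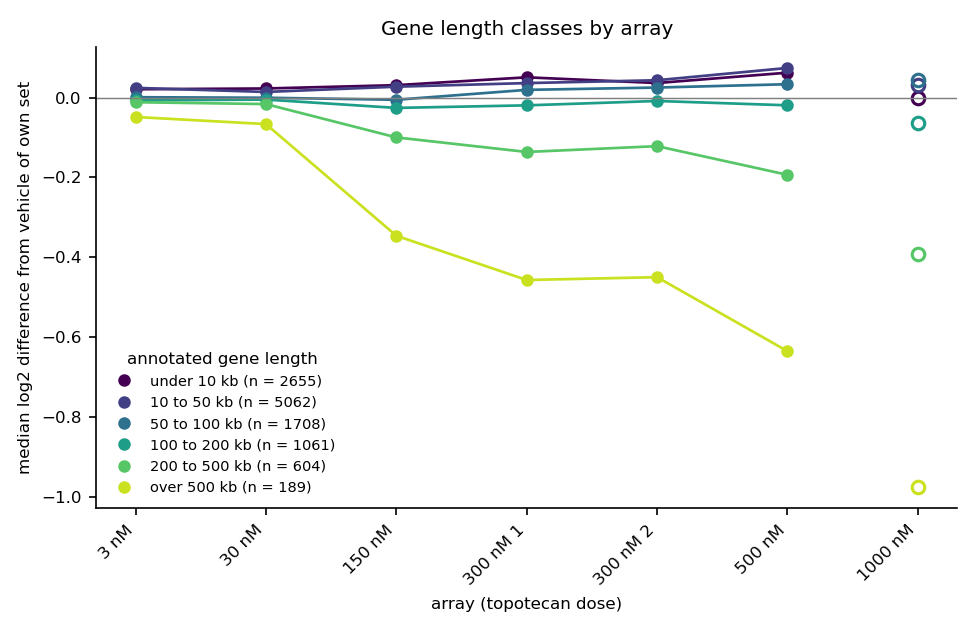
Median log2 difference from the vehicle of the same array set (vertical axis) for genes of 6 annotated length classes in each treated array (horizontal axis, by dose); lines join the arrays of the set of 7 and open points are 1000 nM, which belongs to the set of 3. Genes over 500 kb go from -0.049 at 3 nM to -0.64 at 500 nM and -0.98 at 1000 nM, and classes up to 100 kb lie between -0.0056 and 0.074.

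The share of genes whose dose trend fell was 40.2% over 500 kb, 13.2% at 200 to 500 kb and 1.41% at 100 to 200 kb, and it was 0.678% under 10 kb. With the within-set trend these shares were 89.4%, 57.9%, 18.9% and 8.47%. The 1 gene over 500 kb that rose in the 10 arrays was Mast4, a kinase gene of 603 kb. It was at 7.48, 7.54 and 7.65 in vehicle, 7.70, 7.67 and 7.86 at 3 to 150 nM, 8.22 and 8.05 at 300 nM, and 8.20 at both 500 and 1000 nM (slope 0.12 ± 0.015 per dose step, adjusted p 0.00467, limma). Across the 11279 genes of known length, the rank correlation of length with the difference from the own-set vehicle was -0.092 and -0.082 at 3 and 30 nM. It was -0.18 at 150 nM, -0.20 and -0.16 at 300 nM, -0.21 at 500 nM and -0.13 at 1000 nM. These correlations are across genes, which are not independent replicates, and arrays of a set share their vehicle.

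Within the set of 7, which holds 5 of the doses, single long genes could be followed step by step. Of the genes over 500 kb, 159 of 189 (84.1%) were lower in all 4 arrays at 150 to 500 nM than in vehicle 3, 3 nM and 30 nM, against 10.4% of all genes tested. In 115 of them (60.8%) the level was lower at each step from 30 to 150, 150 to both 300 nM arrays and both of these to 500 nM, against 4.67% of all genes; the reverse order held for 0 of them and 5.56% of all genes. Their median step was -0.28 from 30 to 150 nM, -0.14 from 150 to 300 nM and -0.19 from 300 to 500 nM, and the median gap between the 2 arrays at 300 nM was 0.077. The median step from 3 to 30 nM was -0.016.

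**Figure D3:**
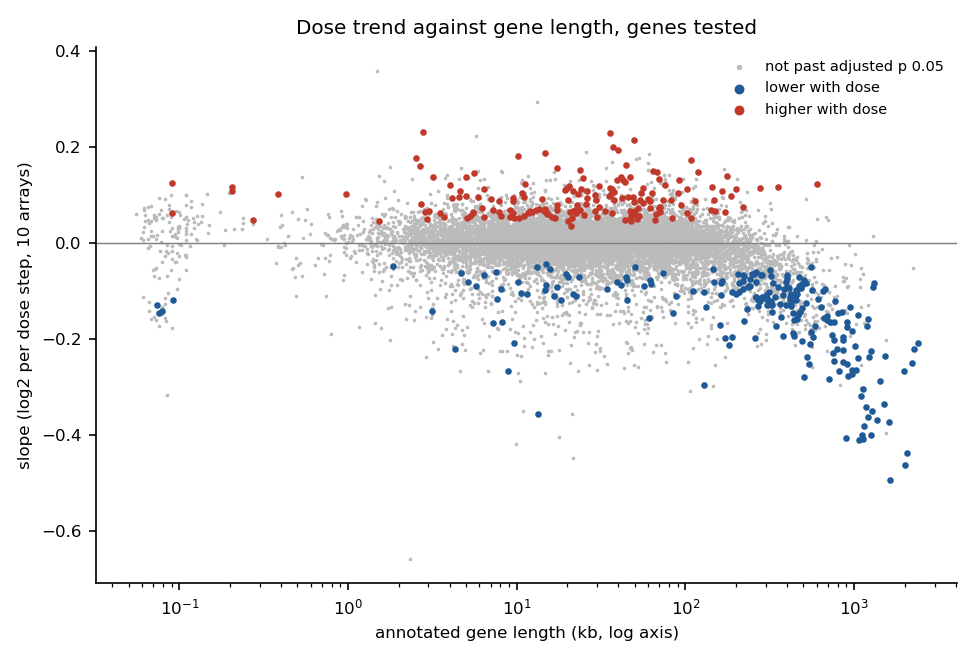
Slope of the dose trend in log2 per dose step over the 10 arrays (vertical axis) against annotated gene length in kb (horizontal log axis), 1 point per gene tested; blue and red points are genes past an adjusted p of 0.05. The 220 genes that fell have a median length of 384 kb and the 170 that rose one of 24.3 kb.

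The steepest fall was that of Csmd1, a complement-regulating transmembrane protein gene of 1643 kb. Its log2 intensity was 9.37, 9.35 and 9.49 in vehicle, 9.42 at 3 nM and 9.37 at 30 nM, then 8.32 at 150 nM, 7.90 and 7.88 at 300 nM, 7.10 at 500 nM and 6.21 at 1000 nM. No array at 150 nM or above overlapped the vehicle arrays, and the 2 arrays at 300 nM differed far less than neighbouring doses did. The slope was -0.49 ± 0.051 (SE) per dose step with an adjusted p of 0.00221 (limma, 10 arrays).

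Macrod2, which encodes a mono-ADP-ribosylhydrolase and spans 1998 kb, was at 10.14, 10.10 and 10.36 in vehicle, 10.41 and 10.28 at 3 and 30 nM, 9.27 at 150 nM, 8.94 and 8.84 at 300 nM, 8.46 at 500 nM and 6.91 at 1000 nM. Of its 6 probe sets 5 fell with dose and 1 did not (slope 0.0026). Lrp1b, a lipoprotein receptor family gene of 2058 kb, was at 7.78, 7.74 and 8.43 in vehicle, 8.29 and 8.22 at 3 and 30 nM, 7.16 at 150 nM, 6.60 and 6.67 at 300 nM, 5.96 at 500 nM and 5.29 at 1000 nM. Both genes stayed at vehicle levels up to 30 nM and were below all vehicle arrays from 150 nM.

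The ligand and receptor pair Nrg3 and Erbb4, of the neuregulin pathway that guides interneurons and their synapses, fell together. Nrg3 (1108 kb) was at 10.36, 10.37 and 10.78 in vehicle, 10.67 and 10.59 at 3 and 30 nM, 9.91 at 150 nM, 9.61 and 9.58 at 300 nM, 9.00 at 500 nM and 7.42 at 1000 nM. Erbb4 (1077 kb) was at 9.53, 9.54 and 10.07 in vehicle, 9.98 and 10.04 at the lowest doses, 9.20 at 150 nM, 8.88 and 8.80 at 300 nM, 8.24 at 500 nM and 6.52 at 1000 nM. For both, vehicle 1 and 2 lay below vehicle 3, 3 nM and 30 nM and above every array from 150 nM. The slopes were -0.40 ± 0.071 (adjusted p 0.017) and -0.41 ± 0.083 (adjusted p 0.0277, limma), and both calls were lost without the 500 nM array; that of Erbb4 was also lost without 3 nM or vehicle 3.

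**Figure D4:**
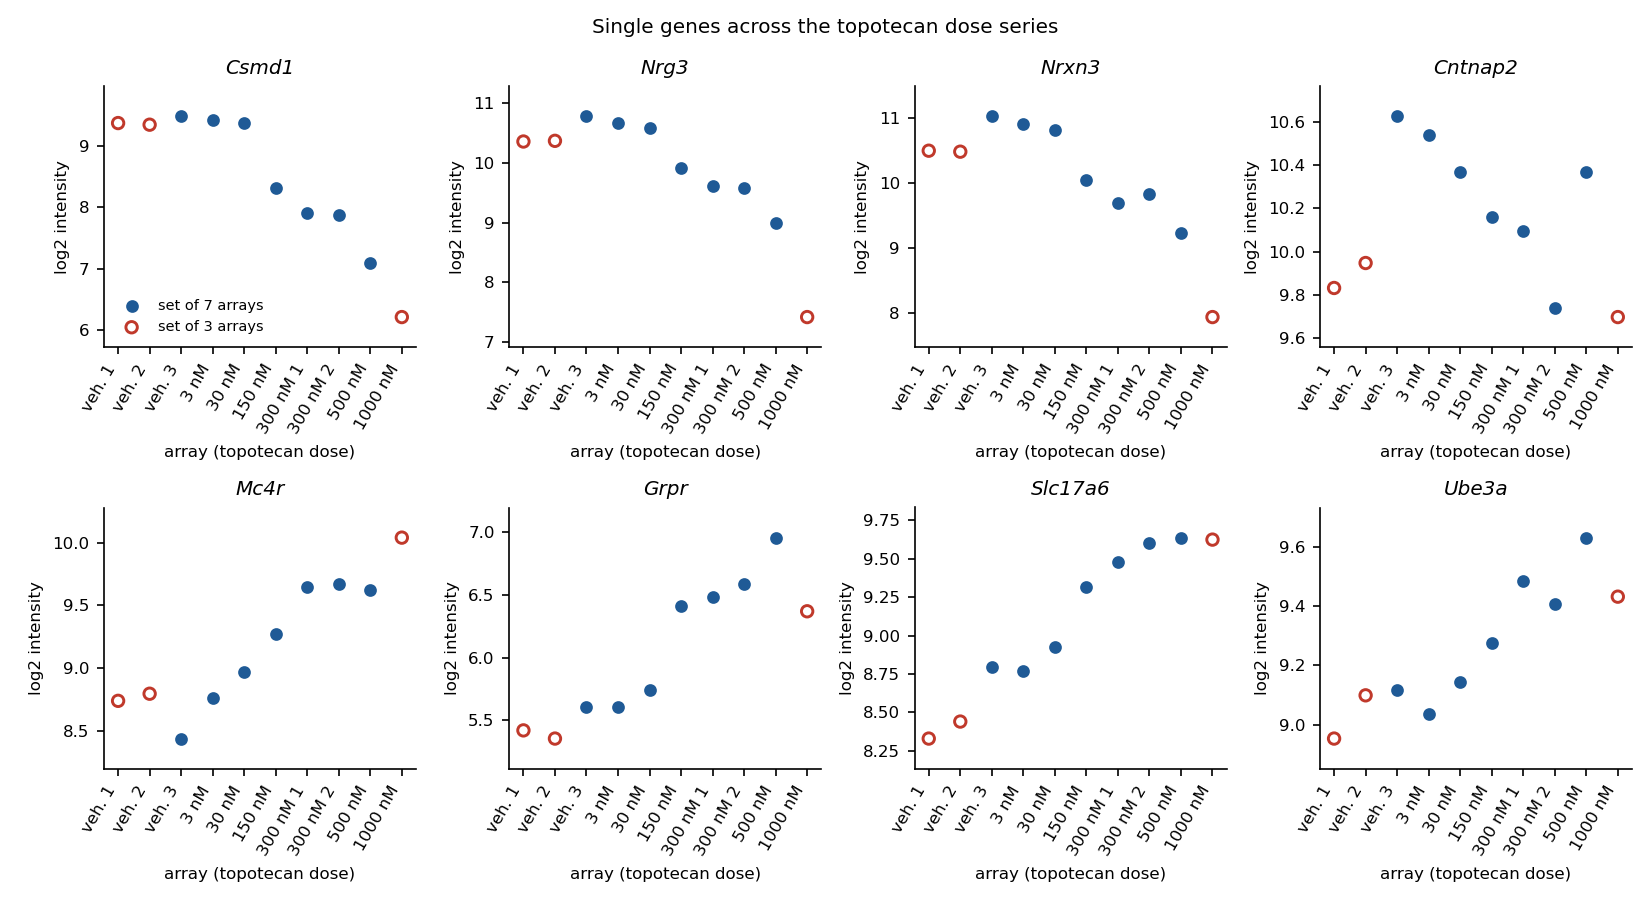
Log2 intensity (vertical axes) of 8 genes in each of the 10 arrays ordered by topotecan dose (horizontal axes); filled points are the set of 7 arrays and open points the set of 3. Csmd1, Nrg3 and Nrxn3 lie lower at each dose above 30 nM, Cntnap2 shows no such order, and Mc4r, Grpr, Slc17a6 and Ube3a lie higher from 150 nM than in vehicle.

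Of 69 very long genes tested from a list, 41 fell and 0 rose in the 10 arrays. Their median slope was -0.20 per dose step against 0.0030 over all genes tested. The list was chosen with earlier results of these data known, so its share is not independent of the values. In the class over 500 kb, set by annotation alone, 76 of 189 genes (40.2%) fell and 1 rose. The within-set trend fell in 63 of the 69 listed genes, the trend in the set of 7 in 55, and the dose trend without the 500 nM array in 25. Kcnip4, which encodes a potassium channel-interacting protein, had a slope of -0.41, with 8.92, 9.05 and 9.50 in vehicle, 8.23 and 8.22 at 300 nM and 6.02 at 1000 nM; its call was lost without the 500 nM array. Lingo2, which encodes a leucine-rich repeat membrane protein of neurons (slope -0.40), was at 8.33, 8.52 and 8.34 in vehicle, 7.43 at 150 nM, 7.09 and 7.21 at 300 nM, 6.72 at 500 nM and 5.67 at 1000 nM. Another probe set of Lingo2, of similar brightness, fell less (slope -0.16), from 7.95, 7.87 and 7.76 in vehicle to 6.74 at 1000 nM. A very long gene whose fall did not pass was Cntnap2, a contactin-associated adhesion protein gene of 2241 kb. It was at 9.83, 9.95 and 10.63 in vehicle, 10.54, 10.37 and 10.16 at 3 to 150 nM, 10.09 and 9.74 at 300 nM, 10.37 at 500 nM and 9.70 at 1000 nM. Its dose trend did not pass the threshold in the 10 arrays (slope -0.052 ± 0.045, adjusted p 0.592), within sets (adjusted p 0.114) or in the set of 7 (adjusted p 0.131, limma). Gpc5, a cell-surface glypican gene of 1433 kb, was at 7.96 and 7.98 in vehicle 1 and 2 and 6.06 at 1000 nM, and in the set of 7 at 6.96 in vehicle 3, 6.89 and 6.88 at 3 and 30 nM, 6.46 at 150 nM, 6.15 and 6.51 at 300 nM and 5.92 at 500 nM (slope -0.29 ± 0.049, adjusted p 0.0155). Its 2 arrays at 300 nM differed by as much as neighbouring doses did, and its call was lost without the 500 nM array.

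Of the 189 genes over 500 kb, 95 passed with the array sets as a term but not in the 10 arrays, and the largest such falls were in Pcdh15, a protocadherin of sensory hair cells and neurons, and Dcc, the netrin receptor that steers axons; both were picked after their values were seen. Pcdh15 was at 7.19 and 7.38 in vehicle 1 and 2 and 4.82 at 1000 nM, and in the set of 7 at 8.61 in vehicle 3, 8.36 and 8.37 at 3 and 30 nM, 7.43 at 150 nM, 6.92 and 7.00 at 300 nM and 6.21 at 500 nM. Dcc was at 8.90, 8.94 and 7.11 in the set of 3, and at 10.43, 10.14, 10.15, 9.24, 8.92, 8.97 and 8.48 over the set of 7 in order of dose. In both genes vehicle 1 and 2 lay below vehicle 3 by more than 1 and overlapped the treated arrays of the set of 7, while within each set the treated arrays from 150 nM lay below the vehicle. Their adjusted p was 0.0648 and 0.133 in the 10 arrays and 1.71e-05 and 2.03e-05 within sets (limma).

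Adhesion molecules that join synapses and axons fell in 17 of 74 cases and rose in 2, with a median slope of -0.035, and 35 and 8 did in the within-set trend. Of all genes tested 1.95% fell and 1.51% rose in the 10 arrays, and 12.9% and 12.5% did within sets. These shares are the background of each list that follows. Long genes have a higher background of falls. Of 1854 genes over 100 kb 171 (9.22%) fell and 19 (1.02%) rose in the 10 arrays, and 720 (38.8%) fell and 106 rose within sets. The part of length in the falls of each list was not tested. All 17 adhesion genes that fell were over 100 kb, and 50 of the 74 were that long. Nrxn3, a presynaptic neurexin of 1612 kb, was at 10.50, 10.49 and 11.03 in vehicle, 10.92 and 10.81 at 3 and 30 nM, 10.05 at 150 nM, 9.69 and 9.84 at 300 nM, 9.23 at 500 nM and 7.94 at 1000 nM (slope -0.37 ± 0.064, adjusted p 0.0156, limma). Nlgn1, a postsynaptic neuroligin that binds neurexins, was at 9.65, 9.57 and 9.31 in vehicle, 9.24 and 9.31 at 3 and 30 nM, 9.09 at 150 nM, 8.95 and 9.02 at 300 nM, 8.68 at 500 nM and 8.24 at 1000 nM. Its slope was -0.18 ± 0.023 (adjusted p 0.00593), and a dimmer probe set of the gene had a slope of 0.072 that did not pass.

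Tenm1, a teneurin that binds latrophilins across the synapse, went from 9.93 to 10.56 in vehicle to 8.49 at 500 nM and 7.32 at 1000 nM. Cdh12, a classical cadherin, went from 8.10 to 8.68 in vehicle to 6.87 and 5.93. Cntn5, a contactin, was within 9.02 to 9.14 in vehicle and at 3 and 30 nM, and at 8.44, 8.12, 8.22, 7.83 and 6.42 from 150 nM. Il1rapl1, a postsynaptic organizer, was at 7.46 to 7.85 in vehicle and 6.22 and 4.89 at 500 and 1000 nM. The slopes of these 4 genes were between -0.41 and -0.35, and their calls held with each array left out in turn. Ptprd, a receptor phosphatase that binds postsynaptic partners, had levels of 11.08 to 11.18 in vehicle and lay at 10.51 at 150 nM, 10.33 and 10.46 at 300 nM, 10.31 at 500 nM and 9.64 at 1000 nM. Opcml, a cell adhesion molecule of the IgLON family, was at 11.31 to 11.64 in vehicle and 10.89, 10.56, 10.64, 10.28 and 9.30 from 150 nM. Ptprd and Opcml were picked from the list after their values were seen. Both adhesion genes that rose were under 100 kb: Lrrtm1, a postsynaptic leucine-rich repeat protein that binds neurexins (slope 0.076 ± 0.015), and Pcdh8, an activity-linked protocadherin (0.096 ± 0.020).

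Glutamate receptor genes fell in 5 of 19 cases and rose in 0, with 12 and 0 within sets. All 5 were over 100 kb, as were 16 of the 19. The metabotropic receptor gene Grm7 was within 9.67 to 9.71 in vehicle and at 3 and 30 nM, then at 9.20, 8.96, 9.00, 8.53 and 7.70 from 150 nM (slope -0.28 ± 0.038, adjusted p 0.00747, limma). Grin2b, the NMDA receptor subunit of young neurons, was at 11.20 to 11.27 up to 30 nM, 11.06 at 150 nM, 10.89 and 10.86 at 300 nM, 10.62 at 500 nM and 9.98 at 1000 nM (slope -0.16 ± 0.030, adjusted p 0.0203). The delta receptor gene Grid1 was at 9.30 to 9.36 up to 30 nM and went to 8.67 and 7.71 at 500 and 1000 nM, and the AMPA receptor subunit gene Gria1 from 10.92 to 11.01 in vehicle to 10.56 and 9.95. The call for Gria1 (adjusted p 0.0484) was lost in 9 of the 10 fits that left out an array, and that for Grin2b without the 500 nM array. Of the receptor genes that passed within sets but not in the 10 arrays, Grm5, a metabotropic receptor, was at 10.75 to 10.99 in vehicle, 10.30 at 500 nM and 9.46 at 1000 nM, and Grin2a, an NMDA receptor subunit, at 9.33 to 9.84, 9.11 and 7.92; both were picked after their values were seen.

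Of 11 GABA receptor genes, 7 of them over 100 kb, 0 fell and 1 rose in the 10 arrays, and 6 fell and 3 rose within sets. The gene that rose was Gabrg1, the gamma subunit 1 gene, at 7.79, 7.93 and 8.27 in vehicle, 8.22 and 8.39 at 3 and 30 nM, 8.60 at 150 nM, 8.66 in both arrays at 300 nM, 8.84 at 500 nM and 8.57 at 1000 nM (slope 0.13 ± 0.026, adjusted p 0.0251, limma). The call was lost in 6 of the 10 fits that left out an array. Gabrb1, a beta subunit gene of 492 kb, was at 10.48 to 10.89 in vehicle, 10.51 and 10.50 at 300 nM, 10.25 at 500 nM and 9.32 at 1000 nM, and passed within sets and in the set of 7 but not in the 10 arrays (adjusted p 9.26e-05, 0.00415 and 0.124, limma); it was picked after its values were seen.

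Voltage-gated ion channel genes fell in 8 of 37 cases and rose in 1, with 20 and 2 within sets. All 8 were over 100 kb, as were 26 of the 37. Without the 500 nM array 1 fell. Kcnma1, the large-conductance calcium-activated potassium channel, was at 9.79, 9.79 and 10.30 in vehicle, 10.13 and 10.17 at 3 and 30 nM, 9.51 at 150 nM, 9.39 and 9.41 at 300 nM, 8.91 at 500 nM and 7.77 at 1000 nM. The calcium channel alpha2delta genes Cacna2d3 and Cacna2d1 went from 9.73 to 10.11 and 10.61 to 10.69 in vehicle to 9.07 and 9.89 at 500 nM and 7.74 and 9.08 at 1000 nM. The calls of Kcnma1, Cacna2d3 and Cacna2d1 were lost in 4, 5 and 9 of the 10 fits that left out an array, the 500 nM array among them. Kcnip1, another potassium channel-interacting protein, had a shallower fall, at 9.21 to 9.26 in vehicle, 9.19 and 9.11 at 3 and 30 nM, 8.95 at 150 nM, 8.84 and 8.77 at 300 nM, 8.70 at 500 nM and 8.38 at 1000 nM (slope -0.13 ± 0.013, adjusted p 0.00221, limma); it was picked after its values were seen. The channel gene that rose, Cacna1h, a low-threshold calcium channel, was at 8.06 to 8.35 in vehicle and 8.56 to 8.74 from 150 nM.

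In the vesicle release machinery 2 of 40 genes fell and 1 rose, and 18 and 3 did within sets. Both that fell were over 100 kb, as were 18 of the 40. Erc2, an active zone scaffold gene of 856 kb, was within 10.15 to 10.23 up to 30 nM and at 9.75, 9.56, 9.51, 9.22 and 8.37 from 150 nM (slope -0.25 ± 0.036, adjusted p 0.00958, limma). Syn2, a synapsin of 148 kb, was at 10.33 to 10.61 in vehicle, 10.19 at 500 nM and 9.84 at 1000 nM, and its call was lost in 9 of 10 fits that left out an array. Rph3a, a Rab3-binding vesicle protein gene of 69.6 kb, rose from 9.51 to 9.80 in vehicle to 10.09 and 10.05 at 500 and 1000 nM, with its call lost in 4 of those fits.

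Among 93 autism candidate genes 17 fell and 3 rose, and 43 and 9 did within sets. All 17 that fell were over 100 kb, as were 63 of the 93, and of the 30 shorter ones 0 fell (2 within sets). The longer members had a median slope of -0.096 and the shorter ones of 0.024. Ube3a, the ubiquitin ligase gene of Angelman syndrome, which neurons express from the maternal copy and whose paternal copy is silenced by a long antisense transcript, was among the 3 that rose. It was at 8.95, 9.10 and 9.12 in vehicle, 9.04 and 9.14 at 3 and 30 nM, 9.28 at 150 nM, 9.48 and 9.41 at 300 nM, 9.63 at 500 nM and 9.43 at 1000 nM. All arrays from 150 nM lay above all vehicle arrays (slope 0.090 ± 0.016, adjusted p 0.0167, limma), but the call was lost without the 500 nM array. The arrays do not tell the parental copies apart. The other risers were Tbr1, a deep-layer cortical transcription factor (slope 0.12 ± 0.023, call lost without vehicle 1, vehicle 2 or 500 nM), and Cacna1h (0.088 ± 0.019).

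The topoisomerases themselves did not pass. Top1, the drug's target, was at 9.24, 9.42 and 9.12 in vehicle and between 9.13 and 9.47 in the treated arrays (slope 0.029 ± 0.016, adjusted p 0.367, limma). Top2b, the topoisomerase II of neurons, was at 9.16 to 9.40 in vehicle and 9.18 to 9.37 in the treated arrays, and Tdp1, which removes trapped topoisomerase I from DNA, at 8.57 to 8.67 and 8.58 to 8.76. Of 14 topoisomerases and repair enzymes 0 passed in the 10 arrays, and 1 fell and 4 rose within sets. A p that misses the threshold does not show that their levels stayed the same.

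Predicted genes, 7 of the 170 that rose, were left out of the ranking. Of the 10 other genes with the largest rises 9 were under 50 kb, and Insyn2b spans 108 kb. Most genes are that short: of 11279 genes of known length, 2655 were under 10 kb and 5062 of 10 to 50 kb. Mc4r, a melanocortin receptor gene of 2.78 kb, was at 8.74, 8.79 and 8.44 in vehicle, 8.76 at 3 nM, 8.97 at 30 nM, 9.27 at 150 nM, 9.65 and 9.67 at 300 nM, 9.63 at 500 nM and 10.04 at 1000 nM (slope 0.23 ± 0.020, adjusted p 0.00171, limma). Grpr, the gastrin-releasing peptide receptor, was at 5.42, 5.36 and 5.60 in vehicle, 5.61 and 5.75 at 3 and 30 nM, 6.41 at 150 nM, 6.48 and 6.59 at 300 nM, 6.96 at 500 nM and 6.37 at 1000 nM, so that its vehicle levels lay below the dim limit of 6.02. Both genes were above every vehicle array from 30 nM, and Grpr was highest at 500 nM.

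Slc17a6, a vesicular glutamate transporter (VGLUT2), was at 8.33, 8.44 and 8.79 in vehicle, 8.77 and 8.92 at 3 and 30 nM, 9.31 at 150 nM, 9.48 and 9.60 at 300 nM, 9.64 at 500 nM and 9.62 at 1000 nM (slope 0.21 ± 0.024, adjusted p 0.00282, limma). It stayed between 9.48 and 9.64 from 300 nM on and did not overlap vehicle from 30 nM. Trhr, the receptor of thyrotropin-releasing hormone, instead stayed at 5.86 to 6.13 up to 30 nM, reached 6.42 to 6.74 at 150 to 500 nM and was at 7.60 at 1000 nM. Pla1a, a phospholipase, was at 6.79, 6.83 and 7.29 in vehicle, 7.68 and 7.78 at 3 and 30 nM, 7.43 to 7.87 at 150 to 500 nM and 8.57 at 1000 nM, with an adjusted p of 0.163 in the set of 7. The other rises among the 10 largest were those of Minar2, BC030500, Insyn2b, Rgs8, a regulator of G-protein signalling, and Gpr21, an orphan receptor, with slopes of 0.16 to 0.19. Rgs8 and Gpr21 did not pass in the set of 7 (adjusted p 0.125 and 0.0552, limma). With 1 array left out the calls of Trhr and Pla1a were lost in 5 of 10 fits, that of Rgs8 in 6 and that of Gpr21 in 8, each time including the fit without 500 nM, while those of the other 6 held.

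Some short genes fell with dose. Nppc (4.28 kb) was at 7.75, 7.88 and 7.41 in vehicle, 6.90 and 6.89 at 3 and 30 nM, 6.75 at 150 nM, 6.63 and 6.52 at 300 nM, 6.30 at 500 nM and 6.49 at 1000 nM. It was below every vehicle array from the lowest dose on (slope -0.22 ± 0.035, adjusted p 0.0117, limma). Hspa2 (3.13 kb) was at 8.57, 8.69 and 8.55 in vehicle, 8.30 and 8.37 at 3 and 30 nM, 8.19 at 150 nM, 7.99 and 7.84 at 300 nM, 7.74 at 500 nM and 7.89 at 1000 nM. Crhbp, which binds corticotropin-releasing hormone, and Itpka, an inositol trisphosphate kinase, had the largest slopes among genes under 50 kb that fell, at -0.36 ± 0.056 (adjusted p 0.0114) and -0.27 ± 0.052 (adjusted p 0.0233); these 2 were picked after their values were seen. Prkcq, a protein kinase C gene of 129 kb, stood out by a steep fall for its length: 7.84, 7.90 and 7.93 in vehicle, 7.97 and 7.71 at 3 and 30 nM, 7.11 at 150 nM, 6.77 and 6.85 at 300 nM, 6.40 at 500 nM and 6.24 at 1000 nM (slope -0.30 ± 0.024, adjusted p 0.00171).

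MicroRNA genes of a single cluster were also among the short genes that fell, a pattern noticed after the values were seen. MicroRNAs are processed from hairpins in longer transcripts, and the large cluster of the imprinted Dlk1-Dio3 region is read from the maternal chromosome. Of 80 microRNA genes tested and matched to the RefSeq table (GRCm38.p6), 22 belong to this run of 37 annotated hairpins over 65.8 kb of chromosome 12, joined by gaps of at most 50 kb. In the 10 arrays 4 of the 22 fell, Mir543, Mir300, Mir539 and Mir667, and 0 rose; within sets all 22 fell. Of the other 58 microRNA genes 0 passed in the 10 arrays, and 6 fell and 4 rose within sets. The 58 include Mir673, Mir337, Mir540, Mir665, Mir341 and Mir370, which lie upstream of the run on the same strand of chromosome 12. Of these, Mir341 fell within sets (slope -0.057, adjusted p 0.00647, limma) and the others did not pass. The mature sequences held by the table for the 4 genes are shown because they identify the members that the trend called. Capitals mark the seed (bases 2 to 8), and no 2 of the 7 sequences share one.
mmu-miR-543-5p: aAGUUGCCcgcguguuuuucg
mmu-miR-543-3p: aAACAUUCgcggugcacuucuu
mmu-miR-667-5p: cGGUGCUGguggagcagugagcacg
mmu-miR-667-3p: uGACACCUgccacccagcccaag
mmu-miR-300-5p: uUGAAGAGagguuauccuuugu
mmu-miR-300-3p: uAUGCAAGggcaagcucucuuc
mmu-miR-539-5p: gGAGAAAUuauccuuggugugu
All lie on the plus strand of GRCm38.p6, miR-543-5p at chr12:109717269-109717289, miR-667-5p at chr12:109720020-109720044, miR-300-5p at chr12:109724318-109724339 and miR-539-5p at chr12:109728136-109728157.

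Mir543, whose 2 arms carry the seeds AGUUGCC and AACAUUC, was at 6.49, 6.59 and 6.76 in vehicle, 6.69 in both arrays at 3 and 30 nM, 6.59 at 150 nM, 6.06 and 6.29 at 300 nM, 6.11 at 500 nM and 5.55 at 1000 nM (slope -0.15 ± 0.030, adjusted p 0.0298, limma). Mir667 was at 8.28, 8.18 and 8.46 in vehicle, 8.45 and 8.37 at 3 and 30 nM, 8.05 at 150 nM, 7.94 and 8.03 at 300 nM, 7.96 at 500 nM and 7.44 at 1000 nM. Over the 22 genes the median difference was -0.55 between 500 nM and vehicle 3 and -0.87 between 1000 nM and the mean of vehicle 1 and 2. The call of Mir300 (adjusted p 0.0469) was lost in 9 of 10 fits that left out an array. These probe sets detect the hairpin region and do not tell the mature microRNA from the transcript that carries it. Meg3 and Rian, noncoding genes upstream of this run in the same imprinted region, had slopes of -0.046 ± 0.020 (adjusted p 0.253) and -0.072 ± 0.041 (adjusted p 0.378) in the 10 arrays, and of -0.053 (adjusted p 0.0226) and -0.091 (adjusted p 0.0041) within sets. The later experiment at 1 µM set 6 arrays against 6 vehicle arrays. There 16 of 16 genes of the cluster that could be tested were lower, for example Mir300 by 2.16 (adjusted p 4.53e-07, limma). Of 37 other microRNA genes 12 were lower there and 5 higher, against 20.5% of all genes tested lower and 20.1% higher. Among those upstream of the run, Mir341, Mir337 and Mir540 were lower at 1 µM, and Mir673 and Mir665 did not pass.

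**Figure D5:**
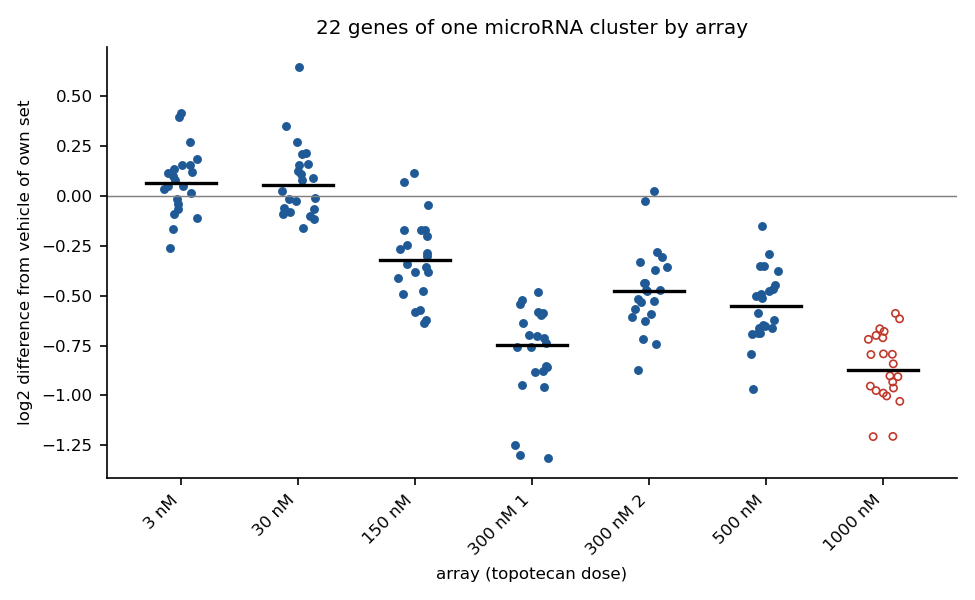
Log2 difference from the vehicle of the same array set (vertical axis) for 22 microRNA genes of 1 cluster in each treated array (horizontal axis, by dose); points are genes, spread sideways for visibility, bars are medians, and open points are 1000 nM, of the set of 3. The median is -0.55 at 500 nM and -0.87 at 1000 nM, and the first array at 300 nM lies below the second.

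Activity-regulated genes fell in 10 of 35 cases and rose in 0 in the set of 7 alone, against 5.34% and 4.64% of all genes. There 14 (40%) were lower in all arrays at 150 to 500 nM than in vehicle 3, 3 nM and 30 nM, and 1 was higher, against 10.4% and 13.3% of all genes. Their median difference from the vehicle of the own set was between -0.37 and -0.13 at 150 to 500 nM and -0.0064 at 1000 nM. Within sets 8 fell and 3 rose, and in the 10 arrays 0 fell and 1 rose. The one that rose was Jun, an AP-1 transcription factor also induced by stress, at 9.73, 9.79 and 10.09 in vehicle, 10.07 and 9.82 at 3 and 30 nM, 10.27, 10.24, 10.41 and 10.43 at 150 to 500 nM and 10.87 at 1000 nM (slope 0.14 ± 0.025, adjusted p 0.0182, limma). It did not pass in the set of 7 (adjusted p 0.117), and its call was lost in each fit without vehicle 1, vehicle 2 or 500 nM. Fos, another AP-1 gene, was at 6.60, 6.54 and 8.03 in vehicle and 6.36 to 7.47 in the treated arrays, and passed in the set of 7 (slope -0.28, adjusted p 0.036) but not in the 10 arrays (0.457) or within sets (0.101, limma), although the first array at 300 nM was the highest of the treated ones. Bdnf, the gene of a neurotrophin, was at 6.02 and 5.88 in vehicle 1 and 2 and 5.75 at 1000 nM, and in the set of 7 at 7.35 in vehicle 3 and 6.63 at 500 nM (adjusted p 0.848 in the 10 arrays, 0.0159 within sets and 0.00379 in the set of 7).

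Of 36 p53 target genes 1 fell and 0 rose, and 2 and 4 did within sets. The gene that fell was Fbxw7, a ubiquitin ligase subunit of 164 kb and the only member over 100 kb; its call too was lost without vehicle 1, vehicle 2 or 500 nM. At 1000 nM, however, 28 of the 36 lay above both vehicle arrays of its set, against 43.1% of all genes tested, with a median difference of 0.20, while their medians at 3 to 500 nM were between -0.089 and 0.061. Cdkn1a, the cell cycle inhibitor p21, was at 11.34 and 11.35 in vehicle 1 and 2 and 11.84 at 1000 nM, and at 10.76 to 11.05 in the set of 7. These are values of a single array at 1000 nM without a test. Of the 17 fibroblast, meningeal and mural markers 12 (70.6%) also lay above both vehicle arrays of its set at 1000 nM, with a median difference of 0.35, while 18 of 19 astrocyte and 19 of 20 proliferation markers lay below both; the part of these cells in the p53 values was not tested. Apoptosis regulators rose in 1 of 24 cases, Bcl2l11, which encodes the pro-apoptotic protein BIM (7.17 to 7.43 in vehicle, 7.69 at 500 nM and 8.16 at 1000 nM), and its call was lost in 8 of 10 fits that left out an array.

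Integrated stress response and unfolded protein response genes did not pass in the 10 arrays (0 of 25), and 10 fell and 1 rose within sets. In the set of 7, 20 of the 25 were lower in all arrays at 150 to 500 nM than in vehicle 3, 3 nM and 30 nM, against 10.4% of all genes. Their median difference from vehicle 3 was -0.23, -0.24, -0.24 and -0.25 over these 4 arrays, close to the same value from 150 nM on, and it was -0.038 at 1000 nM. Mthfd2, a mitochondrial folate enzyme, was at 9.29, 9.21 and 9.14 in vehicle 3, 3 nM and 30 nM, 8.77 at 150 nM, 8.59 and 8.64 at 300 nM and 8.39 at 500 nM, and at 8.53 and 8.61 in vehicle 1 and 2 against 7.60 at 1000 nM (within-set slope -0.18, adjusted p 1.72e-05, limma). Atf4, the transcription factor that drives this response, was at 9.03 in vehicle 3 and 8.54 at 500 nM, and 8.37 and 8.38 in vehicle 1 and 2 against 7.97 at 1000 nM. Mthfd2 and Atf4 were picked from the list after their values were seen.

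Ribosomal protein genes rose in 2 of 67 cases (against 1.51% of all genes) and in 14 within sets (against 12.5%), and 0 fell in either fit. The 2 were Rps9 (10.06 to 10.12 in vehicle, 10.45 at 1000 nM, slope 0.050 ± 0.011) and Rps28 (10.63 to 10.70 and 10.97, slope 0.047 ± 0.011). Both belong to families with near-identical processed copies, and the call was lost in 9 and 10 of 10 fits that left out an array. Respiratory chain genes fell in 1 of 69 cases, Sdhd, a succinate dehydrogenase subunit (10.28 to 10.43 in vehicle, 9.92 at 1000 nM), whose call was lost in 9 of those fits, and in 5 within sets. At 1000 nM 47 of the 69 lay below both vehicle arrays of its set, against 43.5% of all genes.

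Of 15 heat shock genes 2 fell, Hspa2 and Hsph1, a nucleotide exchange factor of Hsp70 (10.15 to 10.21 in vehicle, 9.77 at 1000 nM, slope -0.065 ± 0.011). Of 32 elongation control genes 1 rose, Myc, a transcription factor that promotes elongation, at 8.70 to 8.79 in vehicle, 8.88 at 150 nM, 8.99 and 9.03 at 300 nM, 9.25 at 500 nM and 9.31 at 1000 nM (slope 0.099 ± 0.017, adjusted p 0.015, limma); its call was lost without the 500 nM array. None of 23 NRF2 and antioxidant genes and none of 16 interferon-stimulated genes passed in the 10 arrays, and within sets 2 fell and 2 rose, and 0 fell and 4 rose.

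Markers of excitatory neurons moved both ways in the 10 arrays, with 2 of 16 falling and 3 rising, and 4 and 5 did within sets. In the set of 7 alone 0 fell and 5 rose, against 5.34% and 4.64% of all genes. There 7 were higher in all arrays at 150 to 500 nM than in vehicle 3, 3 nM and 30 nM, and 1 was lower, against 13.3% and 10.4% of all genes. At 1000 nM 8 lay below both vehicle arrays of its set and 7 above both. In the 10 arrays Rorb, a layer 4 transcription factor of 181 kb, and Camk2a, a synaptic kinase, fell, and Slc17a6, Tbr1 and Neurod1, a neurogenic transcription factor, rose. Neurod1 was at 7.75, 7.77 and 7.36 in vehicle, 7.46 and 7.53 at 3 and 30 nM, 7.84 at 150 nM and 8.08 to 8.27 at 300 to 1000 nM. Rorb was at 8.90 and 9.06 in vehicle 1 and 2, 7.97 in vehicle 3 and 7.24 at 500 nM; its call and that of Neurod1 were each lost in 8 of 10 fits that left out an array. Of 18 interneuron markers 1, Erbb4, fell, and 7 fell and 2 rose within sets. In the set of 7 alone 7 fell and 2 rose as well. At 1000 nM 8 of the 18 lay below both vehicle arrays of its set and 8 above both, so the list did not move as a whole. Sst, the somatostatin gene of 1.77 kb, was at 11.11, 11.06 and 11.53 in vehicle, 11.52, 11.58 and 11.37 at 3 to 150 nM, 10.99 and 10.85 at 300 nM, 10.68 at 500 nM and 9.50 at 1000 nM, and passed within sets and in the set of 7 but not in the 10 arrays (adjusted p 0.107 in the 10 arrays, 0.000114 within sets and 0.0102 in the set of 7); it was picked after its values were seen. Reln, which encodes the secreted guidance protein reelin, was likewise picked: it was at 10.27 and 10.26 in vehicle 1 and 2 and 8.85 at 1000 nM, and in the set of 7 at 11.51, 11.38 and 11.37 up to 30 nM and 10.96, 10.70, 10.70 and 10.39 from 150 nM (adjusted p 0.325 in the 10 arrays and 1.13e-05 within sets).

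Of the pan-neuronal markers 1 of 12 fell, Rbfox3, which encodes the nuclear protein NeuN and spans 422 kb (9.91 to 10.14 in vehicle, 9.63 at 500 nM and 8.94 at 1000 nM), and its call was lost in 7 of 10 fits that left out an array. None of 19 astrocyte, 6 oligodendrocyte lineage, 9 microglia, 5 endothelial, 17 fibroblast or 20 proliferation markers passed in the 10 arrays. Within sets 14 astrocyte markers fell, and so did 10 proliferation, 4 microglia, 3 fibroblast and 2 oligodendrocyte markers, and 1 microglia and 1 endothelial marker rose, against 12.9% of all genes that fell and 12.5% that rose. Gfap was at 10.58 and 10.60 in vehicle 1 and 2 and 8.17 at 1000 nM, and in the set of 7 at 7.70 in vehicle 3, 8.22 and 7.85 at 3 and 30 nM, 7.48 at 150 nM, 7.04 and 7.22 at 300 nM and 6.45 at 500 nM. In the set of 7 alone 4 of the 19 astrocyte markers and 0 of the 20 proliferation markers fell. The part of these cell types in the trends of other genes was not tested.

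The doses at which genes left the vehicle range differed by length. A gene was counted from the lowest dose at which it and every higher dose lay outside the range of the 3 vehicle arrays on 1 side. By 150 nM 450 genes had left it downwards (3.99%) and 873 upwards (7.73%); without vehicle 3 the counts were 2284 and 2482. Among genes over 500 kb 86 of 189 (45.5%) had left it downwards and 1 upwards by that dose, with 57 of them leaving at 150 nM itself, 14 at 3 nM and 15 at 30 nM. Among all genes the largest group, 2065 downwards and 1640 upwards, left it only at 1000 nM, where a single array of the set of 3 decides. In all 3112 (27.6%) left it downwards and 3368 (29.8%) upwards at some dose. A single array can lie outside the range of 3 others without any effect of dose, so these totals do not count genes that responded. No fold or test goes with these counts, since 5 of the 6 doses have 1 array.

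The doses of 3 and 30 nM have 1 array each and no test of their own, and together with 150 nM they gave no call against vehicle. The smallest unadjusted p-values of the arrays at 3 to 150 nM, all with an adjusted p of 0.34 (limma), belonged among others to Nppc, lower by 0.83, to Ccl3, a microglial chemokine gene at 7.59 to 8.10 in vehicle and 7.14 to 7.29 in these arrays, and to Zfp503, a zinc finger gene at 5.76 to 5.93 in vehicle and 6.28 to 6.40. For Ccl3 the higher doses lay at 7.34 to 7.58, so that it did not follow dose. Among the arrays at 300 nM against vehicle the smallest was that of Csmd1, lower by 1.51 ± 0.080 with an adjusted p of 0.115 (limma, 2 against 3 arrays).

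The genes called here were set beside 2 other topotecan experiments that share no array with the dose series. In the later gene-level experiment at 1 µM (6 arrays against 6), limma called 2726 lower genes (20.5% of 13308 tested) and 2671 higher (20.1%), or 40.6% in all. Of the 213 genes that fell with dose and were tested there, 204 (95.8%) were lower, which is 8.22% of the 2481 lower genes of that experiment tested here. Of 157 that rose with dose 103 (65.6%) were higher there, which is 5.81% of 1774. On the 3' arrays at 300 nM (3 against 3), 317 genes were lower (2.9% of 10916) and 151 higher (1.38%), or 4.29% in all. Of 180 genes that fell with dose 102 (56.7%) were lower there, or 33.4% of its 305, and of 143 that rose 12 (8.39%) were higher, or 9.76% of its 123.

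For single genes the fall at 1000 nM could be set beside the 1 µM experiment, with levels normalized separately. The difference of Csmd1 was -3.15 between 1000 nM and the mean of vehicle 1 and 2 and -3.16 in the 1 µM experiment (adjusted p 2.48e-11, limma), and that of Nrg3 was -2.94 and -2.85. For Cntnap2 it was -0.19 at 1000 nM and -1.94 at 1 µM (adjusted p 3.55e-06). Grm7 was at 9.71 and 9.69 in vehicle 1 and 2 and 7.70 at 1000 nM, while its difference at 1 µM was 0.0038 and did not pass (adjusted p 0.98, limma). The array types carry different probe sets, and their part in such differences was not tested. Mc4r was higher by 1.28 at 1000 nM and 0.88 at 1 µM, and Slc17a6 by 1.24 and 0.51. BC030500 was higher by 0.94 at 1000 nM and did not pass at 1 µM (difference 0.13, adjusted p 0.479).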

How the data were processed

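The deposited values are intensities on a linear scale, 1 per probe set, made by the authors with Affymetrix Expression Console and RMA per the submitters' processing notes; versions, annotation and build are not given in the sources used here. The design had assumed log2 values, and log2 of the deposited intensity was taken here. Of 35556 probe sets 21218 had 1 gene symbol, 1881 several and 12457 none; the brightest probe set stood for a gene, and genes whose mean log2 intensity fell in the lowest 40% of genes were left out. Gene IDs matched RefSeq (GRCm38.p6) for 99.8%, used for names and lengths; coordinates are given for microRNAs only.

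Fits used limma 3.58.1 (lmFit, eBayes) in R 4.3.3 and were tested on simulated data. The simulated arrays held no split into sets, except for a shift equal for all genes in the check of the within-set trend. The fits were therefore not tested under the split seen here. The rule for named genes left out predicted genes. It took, per comparison, the 10 largest rises and falls past the threshold, or up to 5 smallest p-values, up to 4 members of each list, and a few fixed genes. Members and lists were chosen with earlier results of these data known. Alternatives were other filters, probe set rules, normalization, dose scales, weights, array sets and leaving out each array. Replicate numbers were not used to pair the samples in the main fits.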

Additional observations from a re-analysis of the deposited data

How the results depend on the processing

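No named gene past the threshold in the 10 arrays changed the sign of its slope under the alternatives run. The slopes of 3 that did not pass did so in 9 values: Bdnf (-0.038) had 0.061 without 1000 nM and 0.0065 without vehicle 3, Cdkn1a (0.012) between -0.080 without 1000 nM and -0.023 on log10 of dose, and Top2a (-0.22) 0.032 in the set of 7 and 0.32 in the treated arrays alone. Array weights turned the balance of falls and rises. Of 1345 values for 62 named genes 1048 kept their side of the threshold, 285 lost it and 12 gained it; 21 of 50 named genes past the threshold kept their call with each array left out. The dose trend (390 genes) gave 244 without a filter on dim genes, 2836 with the first principal component as a covariate, 2871 with the array sets as a term, 1127 in the set of 7, 1521 with array weights (907 higher, 614 lower), 217 on log10 of dose (128 higher, 89 lower), 782 on linear dose (254 higher, 528 lower), and 135 (without 500 nM) to 815 (without 1000 nM) with 1 array left out. New quantile normalization gave 218 higher and 196 lower. For 300 to 1000 nM against vehicle (2 genes) the counts were 0 without the filter, 43 at the 60th percentile, 38 with a mean-variance trend, 998 with the principal component, 1302 with the sets, 0 in the set of 7, 6569 with array weights and 0 to 2596 with 1 array left out. Array weights gave 6139 for 3 to 150 nM against vehicle and 352 for 300 to 1000 against 3 to 150 nM, and 1 array left out gave 0 to 2651 and 0 to 0. For 300 nM against vehicle the 60th percentile gave 1 and 1 array left out 0 to 5559. Genes over 500 kb had medians of -0.64 and -1.25 at 500 and 1000 nM against vehicle 3 alone. The mean of genes over 100 kb minus all others was lower by 0.32 at 1000 nM than in vehicle (a difference of -0.317), and the difference was -0.271 without the filter, -0.361 at the 60th percentile, and -0.159 and -0.611 with limits of 50 and 200 kb. Genes outside the vehicle range from 150 nM numbered 998 to 2482 above and 479 to 2284 below with 1 vehicle array left out. With all 3 vehicle arrays they numbered 873 and 450. Leaving out a vehicle array cannot widen the range, so these counts could not fall, and no treated array was left out. With any 1 array left out, 1 µM gave 4762 to 6097 and the 3' arrays 76 to 494. The cause of these changes was not tested. Correlations between the deviations of same-numbered arrays were -0.186 and 0.191 for 300 nM against vehicle. The deviations of the 2 arrays at 300 nM are opposite by construction, so these values cannot show whether the arrays were paired. The replicate block is only a check. It gave 5667 genes for 300 nM against vehicle, in which vehicle 3, without a partner, carries no weight, and 1 for the 3' arrays. Depth is not known for arrays; 5 of 6 doses rest on 1 array each.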
